A study of Mus musculus with 4 samples.

Results

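The spliced noncoding host genes of small nucleolar RNAs (snoRNAs) named Gas5, Snhg1, Snhg3, Snhg5, Snhg6, Snhg8 and Snhg12 were examined in cultured mouse CD4+ T cells with and without dopamine. They were chosen by name, and each name was tied to an Ensembl gene through GENCODE M21. Of these 7 genes, 4 (Gas5, Snhg3, Snhg5 and Snhg12) were matched among the 38282 genes of the expression tables, and the host RNAs of Snhg1, Snhg6 and Snhg8 were not analysed here. The snoRNA genes that lie inside all 7 were looked up separately, and 27 were matched. The cells were naive CD4+ T cells from the spleen of C57BL/6 mice, activated under Th0 conditions, a culture with no lineage-directing cytokines, and harvested on day 4. The Th0 group had 2 libraries without dopamine and the Th0+Dopa group had 2 libraries with dopamine, and replicates 2 and 3 of each group lie in separate tables. For the dose and timing of dopamine and for the age and sex of the mice, the sources used here give nothing. Separate cultures or animals behind the libraries are not stated, so the p-values cover only the spread of these samples, which may be technical.

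As background, most vertebrate snoRNAs are not made from genes of their own but are cut out of the introns of host transcripts after splicing. Box C/D snoRNAs guide ribose methylation and H/ACA snoRNAs guide pseudouridylation of ribosomal and other RNA, and a few, such as those of the Snora73 and Snord22 families, act in the cleavage of the ribosomal RNA precursor. In a noncoding host the introns carry the known product. The spliced exons often hold only short reading frames, and many such RNAs are degraded by nonsense-mediated decay (NMD) when they are translated. Many hosts begin with a tract of pyrimidines (a TOP start), as the mRNAs of ribosomal proteins do, which ties their translation to the mTOR pathway. Gas5 owes its name to its accumulation in growth-arrested cells. Host exons and intronic snoRNA can thus be separate readouts of a locus, where their reads can be told apart.

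The snoRNAs inside these hosts are shown first, because they can be a further readout of the loci beside the host RNA. GENCODE M21 (GRCm38, the build also called mm10) places 29 snoRNA genes on the host strand inside the 7 spans, 27 of them among the measured genes. Of these 27, 20 are 60 to 87 bases long and 7 are 126 to 205 bases long. The 7 longer ones, and 3 of the shorter ones for contrast, have the following sequences from the GENCODE transcripts, written 5′ to 3′. In the Snora RNAs capitals mark the ACA of the H/ACA class where it lies within 4 bases of the annotated 3′ end. In the Snord RNAs they mark the letters TGATGA near the 5′ end and CTGA near the 3′ end, which are the C and D boxes of the box C/D class. Only the strand of the RNA was searched.
Snora73a (Snhg3, chr4:132352775-132352979, minus strand): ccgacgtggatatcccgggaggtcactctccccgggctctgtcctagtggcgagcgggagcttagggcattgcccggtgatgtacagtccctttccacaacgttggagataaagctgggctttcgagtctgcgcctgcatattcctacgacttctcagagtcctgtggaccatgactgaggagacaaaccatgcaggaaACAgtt
Snora73b (Snhg3, chr4:132352322-132352526, minus strand): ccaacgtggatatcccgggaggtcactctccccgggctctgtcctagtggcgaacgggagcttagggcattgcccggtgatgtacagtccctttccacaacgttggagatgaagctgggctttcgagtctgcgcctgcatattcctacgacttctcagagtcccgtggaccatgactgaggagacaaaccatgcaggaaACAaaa
Snora44 (Snhg12, chr4:132309941-132310069, plus strand): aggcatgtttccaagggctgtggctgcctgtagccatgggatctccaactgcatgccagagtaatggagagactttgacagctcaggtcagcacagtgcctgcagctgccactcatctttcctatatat
Snora61 (Snhg12, chr4:132310240-132310369, plus strand): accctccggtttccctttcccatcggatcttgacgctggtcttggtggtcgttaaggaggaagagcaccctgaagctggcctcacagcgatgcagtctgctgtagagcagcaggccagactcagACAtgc
Snora16a (Snhg12, chr4:132309465-132309600, plus strand): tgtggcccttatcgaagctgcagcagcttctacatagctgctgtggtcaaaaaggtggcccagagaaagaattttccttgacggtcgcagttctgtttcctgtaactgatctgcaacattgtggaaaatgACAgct
Snora24 (Snhg8, chr3:123507937-123508066, minus strand): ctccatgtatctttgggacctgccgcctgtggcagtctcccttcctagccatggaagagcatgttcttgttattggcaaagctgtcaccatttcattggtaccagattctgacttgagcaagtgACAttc
Snord22 (Snhg1, chr19:8725866-8725991, plus strand): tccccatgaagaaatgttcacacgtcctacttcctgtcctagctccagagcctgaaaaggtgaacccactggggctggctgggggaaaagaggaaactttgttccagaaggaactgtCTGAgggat
Snord80 (Gas5, chr1:161037601-161037681, plus strand): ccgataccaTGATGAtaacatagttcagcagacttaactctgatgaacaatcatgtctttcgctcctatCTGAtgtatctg
Snord47 (Gas5, chr1:161038082-161038158, plus strand): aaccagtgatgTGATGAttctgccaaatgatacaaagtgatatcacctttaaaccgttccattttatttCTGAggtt
Snord50a (Snhg5, chr9:88521529-88521600, minus strand): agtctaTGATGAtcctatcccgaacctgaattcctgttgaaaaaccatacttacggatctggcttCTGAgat

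Over the 20 shorter snoRNAs, CTGA was present in the last 14 bases of 20 and TGATGA in the first 20 bases of 16. Snora73a and Snora73b are near copies, with the same base at 198 of 205 positions (96.6%), so reads of one could be assigned to the other and each single value is uncertain. In the annotation neither lies in an exon of any of the 5 Snhg3 transcripts.

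**Figure D1:**
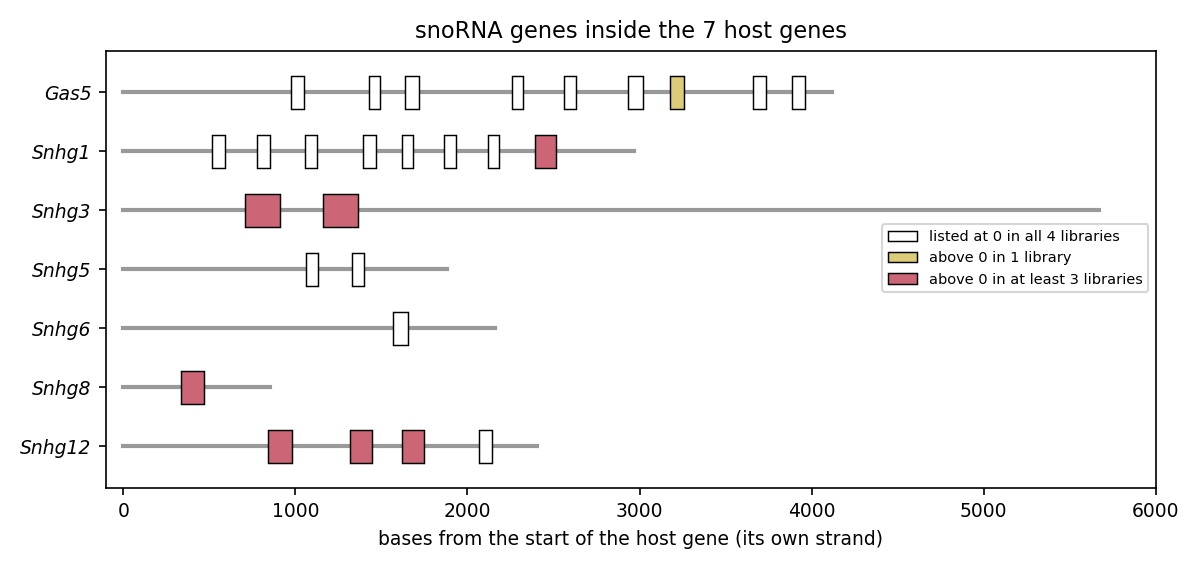
Position of the snoRNA genes (boxes, drawn to their annotated length) along the 7 host genes (grey lines), in bases from the start of each host. White boxes, 19 of the 27, were listed at 0 FPKM in all 4 libraries, yellow marks Snord80, above 0 in 1 library, and red marks the 7 longer snoRNAs, above 0 in at least 3 libraries.

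The measurement is FPKM, fragments per kilobase scaled for library depth, from libraries of total RNA depleted of ribosomal RNA. How the depth was scaled is not stated in the sources used here. Low values of genes with just 1 annotated transcript clustered at whole multiples of 1 fragment, which put the worth of 1 fragment on a 1 kb transcript at 0.158 to 0.21 FPKM across the libraries. Between 81.4% and 85.0% of those values were no more than 0.15 fragment away from a whole multiple. Evenly spread values would give 30% at a fixed step. The step was chosen to make this share largest, so 30% is not its chance level and the estimate is approximate. T cell markers (8 of 8 measured) summed to 1434.7 and 1521.0 FPKM in Th0 and 1392.4 and 1389.2 with dopamine. The sum hides members that moved apart. By the test given below, 1 of the 8 was called higher (Cd3d, 0.48 on the log2 scale) and 1 lower (Trac, -0.70). Over all tested genes 6.28% were called higher and 4.39% lower. Markers of granulocytes and mast cells summed to 446.4 and 592.9 FPKM in Th0 and to 50.04 and 46.5 with dopamine, and those of macrophages and dendritic cells to 277.8 and 361.3 against 101.8 and 75.3. Of the former 8 of 8 tested fell, and of the latter 8 of 10, beside 4.39% of all tested genes called lower. B cell markers and CD8 T and NK cell markers summed to at most 6.98 FPKM in any library. The snoRNA genes together took 3.46% and 2.74% of the summed FPKM in Th0 and 6.52% and 5.09% with dopamine. In such bulk samples, fewer cells of a type and less RNA per cell cannot be told apart.

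The host RNAs were abundant and close to level between the groups. No call was made for Gas5, Snhg3, Snhg5 or Snhg12: 0 of 4 passed the test, while 10.7% of the 11423 genes tested over the whole table did (limma on log2(FPKM + 1), table as a block, adjusted p under 0.05), so with 4 genes a count of 0 is near the background. The lowest unadjusted p of the 4 was 0.36, that of Gas5. A smaller difference than the largest of the 4, or one of the same size, was found for 23.9% of the tested genes. The median of the 4 log2 differences (Th0+Dopa minus Th0) was 0.042, beside 0.027 over all tested genes.

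Gas5 (chromosome 1, 161034422 to 161038539, plus strand, up to 12 exons, 25 annotated transcripts) was the highest of the hosts, at 837.4 and 920.1 FPKM in Th0 2 and Th0 3 and at 941.7 and 958.5 FPKM in Th0+Dopa 2 and Th0+Dopa 3. Both dopamine libraries lay above both Th0 libraries, as was so in either direction for 57% of all tested genes. The log2 difference was 0.11 ± 0.11 (SE), a 1.08-fold level with a 95% interval of 0.889 to 1.32 (limma adjusted p = 0.565). With GC content and transcript length corrected for within each table it was 0.39 and passed (limma adjusted p = 0.0459, against 0.0459 to 0.899 over all alternatives), the only alternative in which any of the hosts was called. All 9 measured snoRNAs inside Gas5 also lie within an exon of at least 1 of its annotated transcripts, a retained intron for instance, so that intron and exon signal may not be fully separate in its value.

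Snhg12 (chromosome 4, 132308623 to 132311024, plus strand), host of Snora16a, Snora44, Snora61 and Snord99, stood at 123.9 and 145.1 FPKM in Th0 and at 128.2 and 136.1 FPKM with dopamine. The dopamine values lay between the Th0 values, and the log2 difference was -0.021 ± 0.10 (limma adjusted p = 0.918), with an interval of 0.823 to 1.18-fold.

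Snhg3 (chromosome 4, 132348014 to 132353686, minus strand), host of Snora73a and Snora73b, stood at 94.3 and 102.8 FPKM in Th0 and at 89.1 and 121.0 FPKM with dopamine. It was lower with dopamine in the table of replicates 2 (-0.082 on the log2 scale) and higher in that of replicates 3 (0.23). The mean was 0.076 ± 0.12 (limma adjusted p = 0.732, interval 0.856 to 1.30-fold), and without Th0+Dopa 3 it was -0.13.

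Snhg5 (chromosome 9, 88521050 to 88522929, minus strand), host of Snord50a and Snord50b, had the lowest level, 69.1 and 77.3 FPKM in Th0 and 74.7 and 72.5 FPKM with dopamine. The groups overlapped and the log2 difference was 0.0085 ± 0.11 (limma adjusted p = 0.971, interval 0.829 to 1.22-fold).

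In every library the order was Gas5, Snhg12, Snhg3, Snhg5. Levels across the libraries compare separately made tables. Gas5 lay at the 98.9th to 99.1st percentile of the tested genes, Snhg12 at the 93.3rd to 95.1st, Snhg3 at the 90.1st to 93.5th and Snhg5 at the 88.1st to 89.4th. The lowest Snhg12 value, 123.9 FPKM, and the highest Snhg3 value, 121.0, were close but did not overlap. In each group the gap in mean level between neighbours in the order was wider than the SDs of both genes in that group, the largest of which for Snhg12, Snhg3 and Snhg5 was 22.6 FPKM (Snhg3 with dopamine, n = 2).

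**Figure D2:**
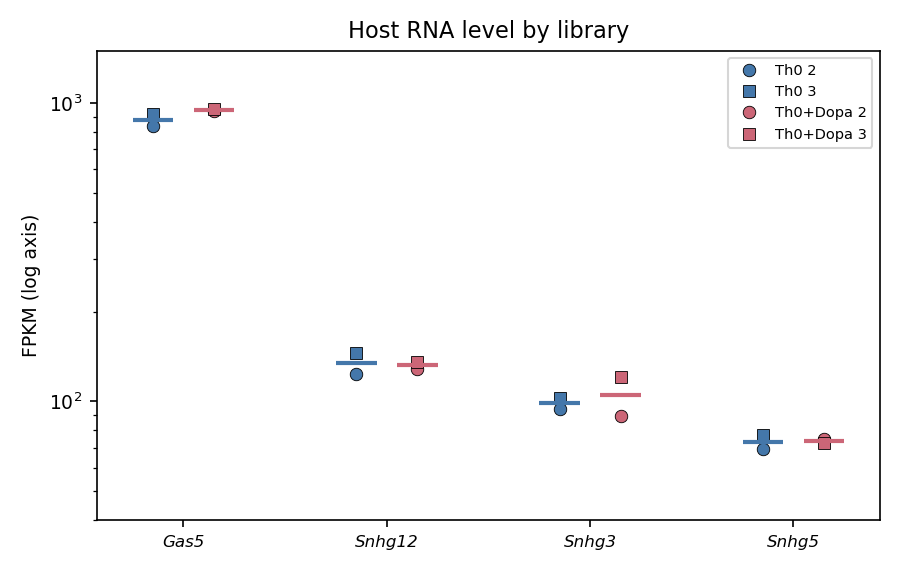
FPKM (log axis) of the 4 measured host RNAs in each library: circles are replicates 2, squares replicates 3, blue Th0, red Th0+Dopa, and bars the group means. Gas5 sits between 837.4 and 958.5 FPKM and Snhg5 between 69.1 and 77.3, and the groups lie close together for each gene.

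The sign of the host differences depended on the scaling. With each library scaled to a common FPKM sum, the median of all tested genes shifted from 0.027 to -0.20, and Gas5, Snhg3 and Snhg5 changed sign with it, to -0.14, -0.18 and -0.24, while Snhg12 stood at -0.27. Relative to the median of all genes, the 4 differences were 0.087, 0.049, -0.019 and -0.049 as deposited and 0.059, 0.023, -0.043 and -0.075 with the common sum (Gas5, Snhg3, Snhg5, Snhg12).

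The longer snoRNAs from the same loci were higher with dopamine. Of the 7 snoRNAs of at least 100 bases, 6 rose and 0 fell, beside 6.28% of all tested genes called higher, and the median log2 difference was 1.87. Among the other snoRNA genes of that length in the tables, 44 of 127 tested were called higher and 2 lower (median 1.46). The rise of the snoRNAs was thus not limited to those inside the noncoding hosts. The filter takes the mean over all 4 libraries, so a snoRNA that is high in only one group can enter through that group. Snora61 entered through the dopamine libraries, with a mean of 0.524 FPKM in Th0 and 40.2 with dopamine. Its call is therefore no independent support for a rise. How many of the 127 entered in such a way was not counted. FPKM of RNA this short depends strongly on how fragment length was handled, which the sources used here do not state, so levels are compared only within a snoRNA.

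Snora73a stood at 2871 and 1403 FPKM in Th0 2 and Th0 3 and at 9538 and 5640 FPKM in Th0+Dopa 2 and Th0+Dopa 3. It rose by 1.87 ± 0.16 on the log2 scale (limma adjusted p = 0.00312). Its near copy Snora73b went from 1093 and 549.5 FPKM to 4865 and 2663 FPKM, a rise of 2.21 ± 0.13 (limma adjusted p = 0.000952). Since reads may be shared between them, their sum is safer, and it was 3.63-fold higher in the table of replicates 2 and 4.25-fold in that of replicates 3. The host Snhg3 differed by -0.082 and 0.23 on the log2 scale in the same tables.

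In Snhg12 the snoRNAs did not all receive the same call, and differences between them were not tested. Snora44 stood at 112.9 and 66.5 FPKM in Th0 and at 392.9 and 167.8 FPKM with dopamine, a rise of 1.56 ± 0.14 (limma adjusted p = 0.0037). Snora61 was at 1.05 FPKM in Th0 2 and listed at 0 in Th0 3, against 35.2 and 45.1 FPKM with dopamine, and was called higher (limma adjusted p = 0.0018). If FPKM was computed with its full annotated length of 130 bases, these values stand for about 0.862 fragment in Th0 2. With dopamine they would then stand for 27.7 and 36.0 fragments. Had a shorter length been used, which is not stated, the fragments would be fewer. The values thus rest on few reads and no fold change is given. Snora16a, from the same host transcript, stood at 25.7 and 10.8 FPKM in Th0 and at 12.0 and 20.6 FPKM with dopamine. It was lower with dopamine in one table (-1.04) and higher in the other (0.88), and did not pass (-0.079 ± 0.42, interval 0.456 to 1.96-fold, limma adjusted p = 0.925). At its full annotated length of 136 bases the Snora16a values would stand for about 22.1 and 6.99 fragments in Th0. With dopamine they would stand for 9.89 and 17.2. Snora16a thus also rests on few reads, and its lack of a call does not set it apart from the others. The snoRNA and host values come from the same libraries and are not independent. Each of the 3 snoRNAs of Snhg12 described here lies within an exon of at least 2 of its 10 annotated transcripts, so that here too intron and exon signal may not be separate. Snora73a and Snora73b lie outside the exons of Snhg3, but also within the span of Rcc1 on the same strand, outside the exons of Rcc1, so that Snhg3 is not their only possible primary transcript. The log2 difference of the snoRNA minus that of its host was 1.74 and 1.41 for Snora44 in the tables of replicates 2 and 3, 1.81 and 1.77 for Snora73a, 2.23 and 2.04 for Snora73b, and -1.09 and 0.97 for Snora16a. These differences between snoRNA and host were not tested.

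Snord22, inside Snhg1, stood at 163.7 and 42.3 FPKM in Th0 and at 477.2 and 282.9 FPKM with dopamine, and rose by 2.13 ± 0.27 (limma adjusted p = 0.00975). Snora24, from Snhg8, stood at 21.3 and 26.8 FPKM in Th0 and at 30.4 and 64.6 FPKM with dopamine, a rise of 0.87 ± 0.20 close to the threshold (limma adjusted p = 0.048). Snord22 lies within an exon of 3 of the 18 annotated Snhg1 transcripts, and Snora24 within an exon of 1 of the 3 of Snhg8. For both snoRNAs, intron and exon signal may thus not be separate, and the host RNA was not analysed here.

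The calls of these 6 snoRNAs varied in how they held under 8 alternatives that kept all libraries. Snora61 passed in 8, Snora73a and Snora73b in 7, Snord22 in 6, Snora44 in 5 and Snora24 in 2. Without the table as a block, 1 of the 6 passed. The GC and length correction made the rises smaller: on the log2 scale Snora73a stood at 1.06, Snora73b at 1.44, Snord22 at 1.36 and Snora61 at 3.69, which passed, and Snora44 at 0.79 and Snora24 at 0.18, which did not. In the fits that left out each library in turn, 0 of the 6 passed in any (limma adjusted p = 0.0601 to 0.569), with log2 differences from 0.35 to 5.35, and at most 4 of 11423 genes were called there. In the same libraries the share of snoRNA in the summed FPKM was higher and the myeloid marker sums were lower with dopamine, by the values given above, and their part in the rise was not tested.

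**Figure D3:**
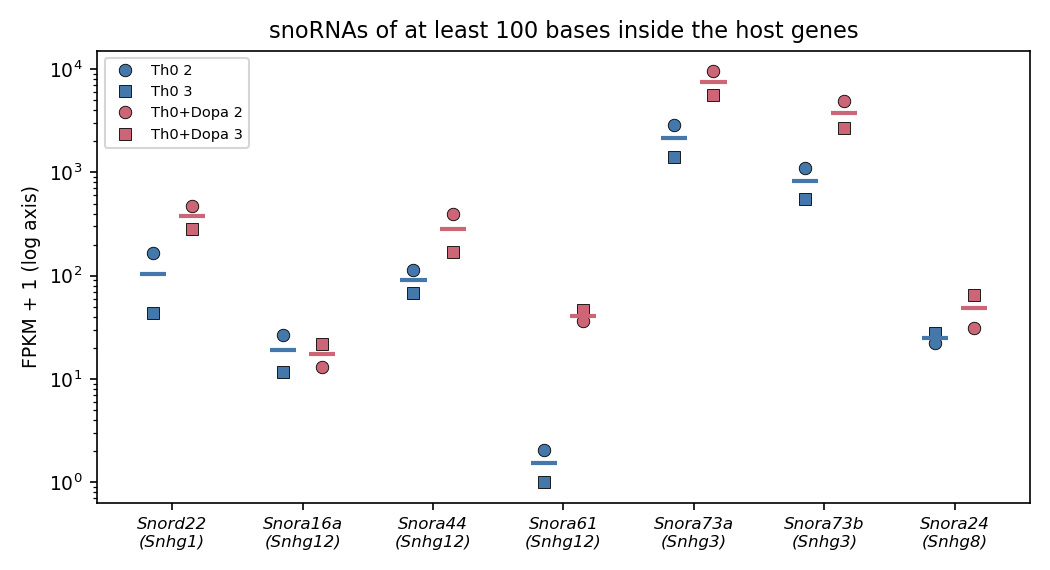
FPKM + 1 (log axis) of the 7 longer snoRNAs, with the host in brackets: circles are replicates 2, squares replicates 3, blue Th0, red Th0+Dopa, and bars the group means. The groups are apart for each snoRNA other than Snora16a, as they are in either direction for 57% of all tested genes. Snora61 is close to 0 in Th0.

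The short box C/D snoRNAs could not be followed. Of the 20 below 100 bases, 19 were listed at 0 in all 4 libraries. They include Snord47 and Snord78 of Gas5, Snord50a and Snord50b of Snhg5, Snord99 of Snhg12 and Snord87 of Snhg6, although Gas5 itself was above 837 FPKM. Snord80 of Gas5 was listed at 0 in 3 libraries and at 723.4 FPKM in Th0+Dopa 2 (limma adjusted p = 0.194), and passed only in the fit without Th0+Dopa 3 (adjusted p = 0.0498, against 0.0498 to 1 over the fits that left out a library). Among the other snoRNA genes of the tables, 98.2% of the 437 below 100 bases were listed at 0 throughout, and 87.8% of the 1045 longer ones. A value listed at 0 for so short an RNA is no measure of its absence.

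Genes that share sequence or a boundary with the hosts were read beside them. Rcc1, the nucleotide exchange factor of the Ran GTPase, lies on the same strand as Snhg3, and the 2 annotations share 135 exonic bases. It stood at 56.1 and 50.4 FPKM in Th0 and at 86.2 and 74.4 FPKM with dopamine and rose by 0.58 ± 0.11 (limma adjusted p = 0.0289). Gm17300, a noncoding RNA on the other strand, shares 705 exonic bases with Snhg3, and its exons cover all 205 bases of Snora73b and 175 of the 205 of Snora73a. It went from 23.9 and 20.9 to 34.4 and 37.1 FPKM, a rise of 0.65 ± 0.14 (limma adjusted p = 0.0398). The kit keeps strand, but whether the counting used it is not stated, so Snhg3, Gm17300 and Rcc1 cannot be fully told apart.

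Slc3a2, the heavy chain of the amino acid transporter of activated T cells, starts 105 bases from Snhg1 on the other strand. It stood at 96.7 and 92.8 FPKM in Th0 and 107.4 and 98.5 FPKM with dopamine (0.12 ± 0.10, limma adjusted p = 0.507). Wdr74, a ribosome assembly factor downstream of Snhg1, rose by 0.54 ± 0.12 (limma adjusted p = 0.0432). Zbtb37, whose span overlaps that of Gas5 on the other strand without shared exonic bases, had -0.17 ± 0.22. Trnau1ap, a factor of selenocysteine tRNA next to Snhg12, had 0.17 ± 0.12, and Syncrip, an RNA-binding protein near Snhg5, -0.24 ± 0.10. Sgk3 near Snhg6 had -0.48 ± 0.22, Zfp949 near Snhg5 -0.17 ± 0.18 and Prss12 near Snhg8 -0.12 ± 0.33. In all, 3 of 11 tested neighbours rose (Rcc1, Gm17300 and Wdr74) and 0 fell, beside 6.28% and 4.39% of all tested genes. All 3 calls were lost with the common sum and without the block.

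The other noncoding hosts were mixed. Of 14 listed genes 6 were tested, with 3 rises and 0 falls (median 0.45), beside 6.28% and 4.39% of all tested genes. Epb41l4aos rose from 47.6 and 46.0 to 86.8 and 76.4 FPKM (0.79 ± 0.11, limma adjusted p = 0.0137). Snhg20 went from 6.07 and 10.5 to 19.9 and 17.2 FPKM (1.11 ± 0.24) and Snhg9 from 8.40 and 3.57 to 17.5 and 29.0 FPKM (1.85 ± 0.39), with limma adjusted p = 0.0439 and 0.0428. The other 3 did not pass: Zfas1, at 356.2 and 358.7 FPKM in Th0 and 327.7 and 333.2 with dopamine, had -0.11 ± 0.10, Snhg15 -0.27 ± 0.14 and Snhg17 0.12 ± 0.17. None of the 3 rises passed after the GC and length correction, and 1 of them, Epb41l4aos, did with the common sum, without the block and with no filter on low values. Without the variance trend 0 passed. With the common sum 1 of the 6 was called lower. With small RNA left out before scaling to a common sum, 3 were called higher and 2 lower. With no filter on low values 8 genes were tested and their median was 0.013. A snoRNA gene of 193 bases lies within an exon of 2 of the 7 annotated Snhg20 transcripts. The same holds for at least 1 annotated transcript each of Snhg15, Snhg17 and Zfas1, which have snoRNA genes within exons. Host and snoRNA signal may therefore not be separate in the values of Snhg20, Snhg15, Snhg17 and Zfas1. The snoRNA genes inside Snhg9 and Epb41l4aos lie outside the annotated exons. The difference between the other noncoding hosts and Gas5, Snhg3, Snhg5 and Snhg12 was not tested.

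**Figure D4:**
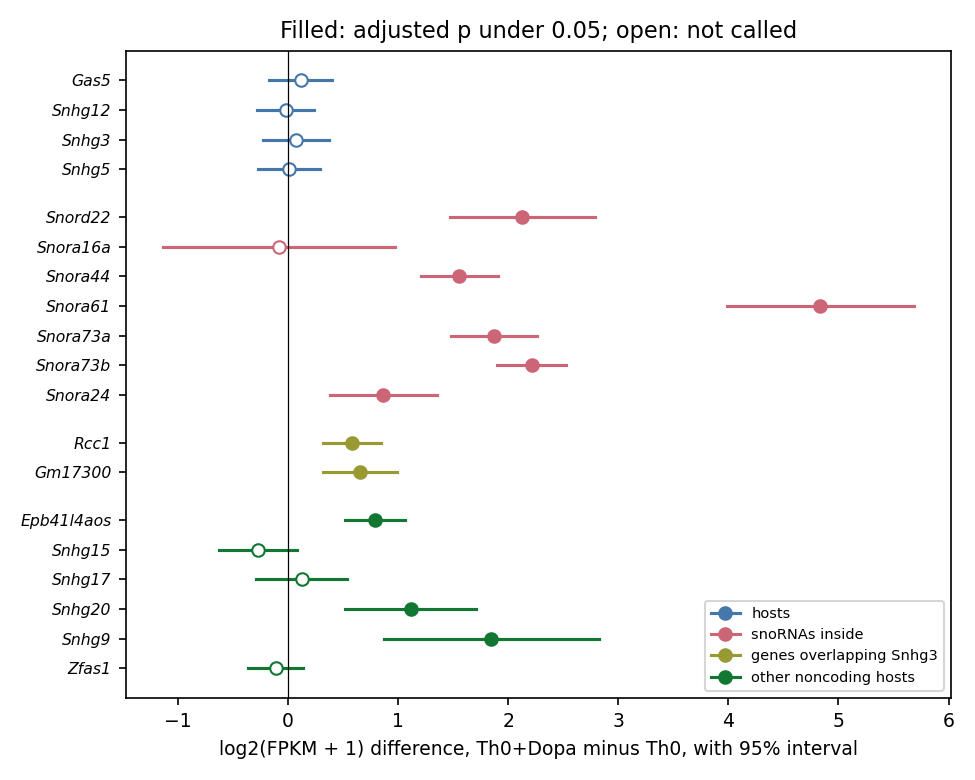
Log2(FPKM + 1) differences, Th0+Dopa minus Th0, with 95% intervals from limma for the hosts (blue), the longer snoRNAs inside the 7 hosts (red), genes overlapping Snhg3 (olive) and the other noncoding hosts (green). Filled points passed an adjusted p under 0.05. The host intervals all include 0, and 6 of 7 snoRNAs lie to the right of it.

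Protein-coding genes that also carry snoRNAs inside their span were, like the noncoding hosts, centred near 0. Of 207 tested, 10 rose (4.83%) and 4 fell (1.93%), against 6.28% and 4.39% of all tested genes, with a median of 0.037 as deposited and -0.21 with the common sum. With the common sum 11 rose and 18 fell, so the balance of the calls depended on the scaling. Without the block 2 rose and 1 fell, and without the variance trend 0 rose and 2 fell. As deposited, the largest calls were falls of March1 (-1.68 ± 0.31), a ubiquitin ligase of class II molecules, and Tbxas1 (-1.38 ± 0.24), thromboxane synthase. Both are known from antigen-presenting or myeloid cells, whose markers were lower in the same libraries, and the part of those cells was not tested. The ribosomal protein genes Rplp2 (1.09 ± 0.13) and Rpl13 (1.02 ± 0.12) followed as rises. March1 was near the floor, at 2.49 and 4.03 FPKM in Th0 and 0.0782 and 0.586 with dopamine, and passed the filter only through Th0. The size of its fall depended on the pseudocount (-3.22 with 0.1). March1 was not called without the block or after the GC and length correction, and Tbxas1 not without the block or with no filter on low values.

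Ribosomal protein mRNAs, the best known class with a TOP start, were also counted: 25 of 79 tested rose (31.6%, beside 6.28% of all tested genes) and 0 fell (median 0.41). Rpl36 rose by 1.55 ± 0.16, from 571.8 and 615.6 to 2023 and 1486 FPKM, Rplp1 by 1.19 ± 0.19, Rps21 by 1.17 ± 0.13 and Rplp2 by 1.09 ± 0.13 (limma adjusted p = 0.0061 to 0.02). With the common sum 27 rose and 5 fell (median 0.16), while 7 passed with no filter on low values, 5 without the block and 0 without limma's variance trend. The ribosomal proteins have many processed pseudogenes, which makes the value of each uncertain. Of 14 translation factors and other genes with TOP mRNAs, 0 passed (median 0.14, or -0.11 with the common sum). The most abundant, Eef1a1, the elongation factor that delivers aminoacyl-tRNA, had 0.43 ± 0.19 (limma adjusted p = 0.21), and Npm1, a nucleolar chaperone, -0.18 ± 0.14 (adjusted p = 0.455).

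Of 18 tested proteins that build or form snoRNPs, the particles of snoRNA and protein, 2 rose and 0 fell (median 0.11, or -0.14 with the common sum). In this and the next 2 groups the counts are small and stand beside 6.28% of all tested genes called higher and 4.39% called lower. Nop10, a core protein of H/ACA particles, went from 113.5 and 96.9 to 181.7 and 146.1 FPKM (0.63 ± 0.10, limma adjusted p = 0.0206). Ruvbl2, an ATPase of the assembly machinery, rose by 0.66 ± 0.12 (limma adjusted p = 0.0289). Neither rise passed with the common sum, without the block or without the variance trend. Of 16 tested NMD factors, 0 rose and 1 fell (median -0.026). Upf2, a core NMD factor, went from 17.3 and 22.4 to 10.8 and 13.4 FPKM (-0.67 ± 0.14, limma adjusted p = 0.0419), and was not called without the block, without the variance trend, with no filter on low values or after the GC and length correction. Of 18 tested mTOR pathway genes, 2 rose and 0 fell (median -0.022). Eif4ebp1, the translation repressor that mTOR inactivates, rose from 70.6 and 63.7 to 138.2 and 112.3 FPKM (0.88 ± 0.11, limma adjusted p = 0.00875), and Sesn1, a stress-induced inhibitor of the pathway, by 0.88 ± 0.16 (adjusted p = 0.0283). Without the variance trend 0 of the 18 passed.

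**Figure D5:**
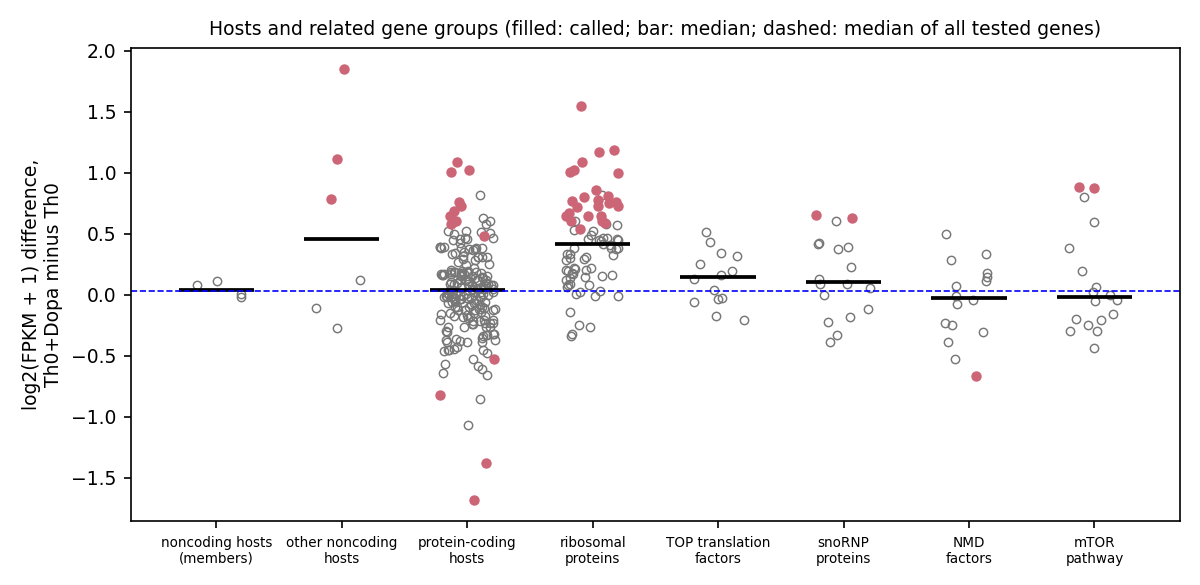
Log2(FPKM + 1) differences, Th0+Dopa minus Th0, of each tested gene in the noncoding hosts and related gene groups. Red points were called, open points were not, black bars are group medians and the dashed line is the median of all tested genes, 0.027. The 4 noncoding hosts lie between -0.021 and 0.11, while ribosomal protein genes centre at 0.41.

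The start sites of the hosts share letters that the choice of genes did not use. RefSeq promoters (GRCm38.p6) gave 7 starts for 6 of the genes, with 2 for Gas5, and Snhg6 was not matched. The letters TATA (the same on both strands) were present between 45 and 15 bases before the start in 5 of these 7, against 6.72% of 32851 RefSeq promoters. An unbroken run of at least 7 C or T bases on the gene's strand, reaching into the window from 10 bases before to 15 bases after the start, was present in 4 of the 7, against 22.3% of all promoters and 53.8% of 65 promoters of ribosomal protein genes. RefSeq starts can be off by some bases, and a match is a description only. The 5 windows with TATA are printed from 45 bases before the start to 25 bases into the transcript, with TATA and any such run in capitals. They are shown because the TOP class is compared above.
Snhg12 (chr4:132308633-132308702, plus strand): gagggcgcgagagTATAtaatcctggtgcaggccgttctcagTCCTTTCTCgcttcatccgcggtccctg
Snhg1 (chr19:8723442-8723511, plus strand): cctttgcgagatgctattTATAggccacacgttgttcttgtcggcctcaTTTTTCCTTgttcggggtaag
Snhg8 (chr3:123508312-123508381, minus strand): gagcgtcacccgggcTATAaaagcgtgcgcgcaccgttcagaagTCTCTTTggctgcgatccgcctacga
Snhg5 (chr9:88522873-88522942, minus strand): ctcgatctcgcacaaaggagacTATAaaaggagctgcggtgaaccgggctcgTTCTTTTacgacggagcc
Gas5 (chr1:161035121-161035190, plus strand): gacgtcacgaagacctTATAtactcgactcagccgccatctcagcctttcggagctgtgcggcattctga

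The window of Snhg3 and that of the upstream start of Gas5 held neither. In the Gas5 window shown, the longest run of C and T at the start was 6 bases.

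Among the 5 genes whose pattern over the 4 libraries was nearest to the mean of the hosts, by the root mean square distance of log2(FPKM + 1) centred on each gene, were Gtpbp4 (0.0182), Cnot8 (0.0218), Tnpo3 (0.024) and Nop58 (0.0241). They were taken from 6004 genes with a mean of at least 10 FPKM, whose median distance was 0.187. The hosts themselves lay 0.0427 (Snhg12) to 0.112 (Snhg3) from their own mean. Nop58, for example, stood at 204.0 and 225.3 FPKM in Th0 and 219.7 and 236.6 FPKM with dopamine. The match is over 4 values only.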

How the data were processed

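RNA was sequenced from 4 libraries of mouse splenic CD4+ T cell cultures. Per the labels' protocols, total RNA was treated with DNase and libraries were made with a stranded kit that depletes ribosomal and globin RNA. The authors deposited FPKM values in 2 separately made tables, each with 1 Th0 and 1 Th0+Dopa library. Per the submitters' processing notes the tools were bcl2fastq 1.8.4, Trimmomatic 0.35, FastQC 0.10.1, STAR 2.4.2 and Cufflinks 2.2.1, with the mm10 build. The sources used here state neither the annotation release nor the normalization options. A further median of ratios scaling moved the median log2 difference of all tested genes only from 0.0271 to 0.0268.

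Genes with a mean of at least 1 FPKM (11423) were tested with limma 3.58.1 in R 4.3.3 on log2(FPKM + 1), with trend, the table as a block, two-sided, Benjamini-Hochberg adjusted over all tested genes, a call being an adjusted p under 0.05. A fold change is on the log2(FPKM + 1) scale and understates that of low genes. With 4 libraries the residual degrees of freedom are 1, to which limma's prior adds 4.70. GENCODE M21 named 36423 of 38282 identifiers. The script was tested on simulated data. The host genes, lists and rules were chosen with earlier results of these data known. Named genes were the hosts, the longer snoRNAs, the nearest tested neighbours, up to 4 called genes per list (otherwise the 2 most abundant) and the 5 nearest in pattern; further names, the split of snoRNAs at 100 bases and the sequence windows were chosen after values were seen. Of the genes these rules name, 2 are not reported here. Lists are described by counts and medians, with no set test. Alternatives were another pseudocount (0.1), filters, scalings, no trend, no block, a GC and length correction (loess, span 0.3) and each library left out.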

Additional observations from a re-analysis of the deposited data

How the results depend on the processing

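Over 13 alternatives, none called Snhg3, Snhg5 or Snhg12, and 1 host (Gas5) was called, with GC and length corrected (0.39, adjusted p = 0.0459). Calls over all genes (1218 as reported) numbered 740 with no filter on low values, 1907 with small RNA left out before scaling to a common sum, 256 without trend, 496 with no replicate block, 808 after the GC and length correction and 0 to 4 with each library left out in turn; those fits also had no block and median of ratios scaling. Calls among the tested related genes were 48 of 337 as reported. They numbered 19 of 388 with no filter and 78 of 329 with small RNA left out, where 0 of the snoRNAs inside the hosts were tested. Without trend they numbered 5 of 337, and with no replicate block 10 of 337. In the fits with each library left out, 1 group has a single library, assumed to vary like the other group. As reported, 3177 genes had an unadjusted p under 0.05. With the table as a replicate block the numbers stand for the tables; deviations of same-numbered libraries correlated at 0.087 across genes, and no label ties a number to an animal or a culture. Higher calls were 717 of 1218 as deposited, 376 of 1440 with the common sum and 494 of 1907 with small RNA left out first.

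Sign changes were as follows. With the common sum: Gas5 -0.14, Snhg3 -0.18, Snhg5 -0.24, Slc3a2 -0.14, Trnau1ap -0.079, Gtpbp4 -0.18, Cnot8 -0.19, Tnpo3 -0.22 and Nop58 -0.17. With small RNA left out first: Gas5 -0.090, Snhg3 -0.13, Snhg5 -0.19, Slc3a2 -0.084, Trnau1ap -0.029, Gtpbp4 -0.13, Cnot8 -0.14, Tnpo3 -0.17 and Nop58 -0.11. These scalings moved the median of all genes to -0.20 and -0.16. After the GC and length correction: Snhg12 0.000296, Slc3a2 -0.0085, Trnau1ap -0.0070 and Npm1 0.20. With each library left out, the ranges were 0.066 to 0.16 for Gas5, -0.13 to 0.28 for Snhg3, -0.051 to 0.068 for Snhg5, -0.11 to 0.071 for Snhg12 and -0.69 to 0.53 for Snora16a. In those fits the ranges of the other genes that changed sign were -0.37 to 0.028 for Zbtb37, -0.29 to 0.047 for Prss12, -0.037 to 0.37 for Trnau1ap, -0.017 to 0.12 for Cnot8 and -0.013 to 0.066 for Tnpo3. The cause of these changes was not tested. Snora61 and Snora16a rest on few fragments, and for snoRNAs listed at 0 the part of depth was not tested.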
